A study of Homo sapiens with 2 samples.

Results

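Glutamine and aspartate metabolism was described in HEK293T cells through 9 genes: SLC1A5, GLS2, GLUL, GLUD1, GOT1, GOT2, ASNS, PYCR1 and ALDH18A1. The genes were chosen by name, as a transporter and enzymes that move, make or spend glutamine, glutamate, aspartate, asparagine and proline, and all 9 were found among the 60664 genes of the count files. RNA was sequenced from wild-type, untreated HEK293T cells in 2 libraries, which form 1 group, so there was no contrast between conditions and no test between groups. HEK293T is an established human line derived from embryonic kidney, with adenovirus sequence and large T antigen of SV40. The cell line entry of replicate 2 reads HEK294T while its title reads HEK293T, and the title was followed. Whether the libraries are from separate cultures is not stated in the labels, and the spread between them may therefore be technical.

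Glutamine is the main carrier of nitrogen between cells, and dividing cells take it up in large amounts. Once inside, it is converted to glutamate, which feeds the citric acid cycle as alpha-ketoglutarate or passes its amino group on to make aspartate, alanine and serine. Glutamate is also reduced to make proline. Aspartate in turn supplies pyrimidine and purine synthesis and, through the malate-aspartate shuttle, moves electrons into mitochondria. Several genes of this group, ASNS above all, are known targets of ATF4, the transcription factor that answers amino acid shortage.

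Replicate 1 held 18011638 counts and replicate 2 held 18575058. With 3 counts as the limit that a count of 0 allows, a gene with no counts could reach 0.167 CPM (a count scaled to the depth of its library) in replicate 1 and 0.162 CPM in replicate 2. Intervals and limits cover counting error only. These reads carried no molecular identifiers, so amplified copies could not be told from separate molecules, and the intervals may be too narrow. Of the markers listed for other cell types, kidney tubule genes held 54 and 75 counts in all 7, with AQP2, SLC12A3 and UMOD at 0 in both libraries. The hepatocyte list held 244 and 248 counts, of which CPS1 gave 217 and 225, with APOB and CYP3A4 at 0. The astrocyte list held 288 and 361, with S100B at 0, the leukocyte list 80 and 68, with CD3E at 0, and the fibroblast list 116 and 124, with COL1A2 and DCN at 0. The 5 proliferation markers were all detected, with PCNA at 9678 and 9391 counts. No marker list specific to HEK293T was tested.

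All 9 genes were detected, meaning that each reached 1 CPM or more in both libraries, against 65.9% of the 19890 protein-coding genes. Together they held 23630 counts in replicate 1 (0.131% of the library) and 26528 in replicate 2 (0.143%). Their median level was 48.1 TPM (a count per exon length, set relative to the same sum over all genes), with medians of 46.1 in replicate 1 and 50.2 in replicate 2. The median over all protein-coding genes was 2.88 TPM. These members were picked as known metabolic genes, and a median above that of all genes is a description of the choice as much as of the cells. A level is an average over all cells of a library, so a change in the number of expressing cells and one in the RNA per cell could not be told apart.

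The order of the 9 genes ran from PYCR1 at 196 ± 3.86 TPM (SD, n = 2, here and below) to GLS2 at 2.30 ± 0.238 TPM. PYCR1, SLC1A5 and ASNS formed the top of the list and lay above 97.6%, 97.0% and 96.4% of protein-coding genes. GOT1, GOT2, ALDH18A1 and GLUL lay between, GLUD1 lay above 72.6% of protein-coding genes, and GLS2 lay above 47.0%. GOT2 and ALDH18A1 were the only neighbours in this order whose ranges over the libraries overlapped. Of the 9 genes, 6 stood at or above the 90th percentile of protein-coding genes on this scale. With the longest coding transcript as the length, GOT1 (85.9%) and ALDH18A1 (86.9%) were below it and GLUL (90.5%) was above it.

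**Figure D1:**
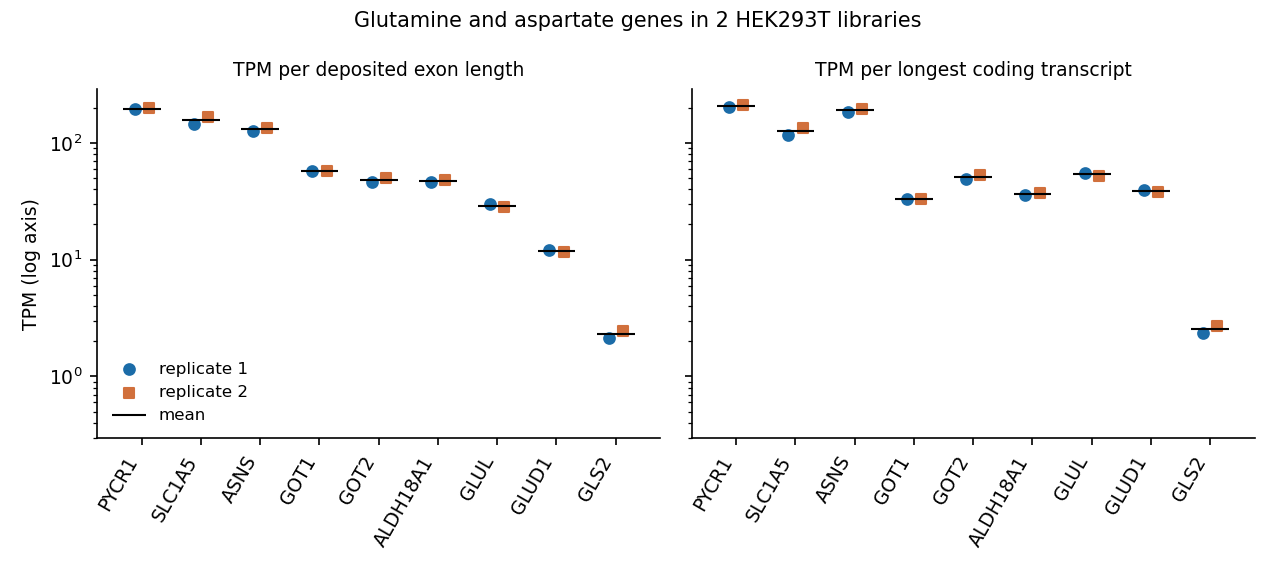
TPM of the 9 genes in each library on a log axis, with counts divided by the deposited merged exon length on the left and by the longest coding transcript on the right. PYCR1 was highest and GLS2 lowest in both panels, while GLUL and GLUD1 stood higher and GOT1 lower in the right panel than in the left.

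This order depended on the length used. The deposited length merges every annotated exon of a gene, and it came to 14283 bases for GLUD1 and 12638 for GLUL. Their longest coding transcripts in GENCODE 29 measure 3039 and 4719 bases. With transcript length in place of merged length, GLUD1 stood at 38.8 ± 1.04 TPM and GLUL at 53.9 ± 2.14 TPM. PYCR1 was then still highest (207 ± 5.17 TPM) and GLS2 still lowest (2.53 ± 0.275 TPM), but ASNS (190 ± 8.80) came above SLC1A5 (126 ± 12.4). On that scale GLUL (53.9 ± 2.14) and GOT2 (51.1 ± 3.31) overlapped over the libraries. GOT1 is a case of its own, since its GENCODE transcript of 2923 bases is longer than its deposited length of 2424 bases, so that scale divides its counts by sequence that was not counted.

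SLC1A5 encodes ASCT2, a plasma membrane exchanger that brings in glutamine in return for other neutral amino acids. The gene lies on the minus strand of chromosome 19 from 46774883 to 46788594 (GRCh38, as for all coordinates here). It had 4239 counts in replicate 1 and 5208 in replicate 2, or 235 and 280 CPM. Its exact 95% binomial intervals, 228 to 243 CPM in replicate 1 and 273 to 288 CPM in replicate 2, did not overlap. Its TPM was 146 and 166, the widest spread in TPM among the 9. SLC1A5 stood 21.6-fold and 25.8-fold above SLC1A4 in TPM, the paralogue that encodes the related exchanger ASCT1, in replicates 1 and 2.

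GLS2 and GLUL run opposite reactions. GLS2 is the liver-type glutaminase, a mitochondrial enzyme that splits glutamine into glutamate and ammonia. GLUL is glutamine synthetase, which joins them again. GLS2, on the minus strand of chromosome 12 from 56470944 to 56488414, had 77 and 96 counts. These were 4.28 CPM (interval 3.37 to 5.34) and 5.17 CPM (4.19 to 6.31), and the intervals overlapped. GLUL, on the minus strand of chromosome 1 from 182378098 to 182392206, had 3285 and 3320 counts, or 182 and 179 CPM. Per deposited length, GLUL had 29.8 and 28.0 TPM and GLS2 2.13 and 2.47 TPM. GLUL stood 14.0-fold and 11.3-fold above GLS2 in TPM in replicates 1 and 2, and 23.7-fold and 19.2-fold above it with transcript lengths.

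The values of GLS2 are uncertain. Of its deposited exonic bases, 77.1% lie inside exons of SPRYD4, a gene on the opposite strand that had 391 and 404 counts, and 82.8% lie inside exons of any other gene. The sources used here do not say whether counting used the strand, or whether a read in shared bases was counted for both genes. In replicate 1 there were 837 pairs in which a gene lies wholly inside exons of an opposite-strand gene. The inner gene had counts in 523 of them and exceeded the outer gene in 0. Which way of counting was used was not tested. How many of the 77 and 96 counts of GLS2 were reads of SPRYD4 was not tested.

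GLUD1 encodes glutamate dehydrogenase, the mitochondrial enzyme that turns glutamate into alpha-ketoglutarate and ammonia. It lies on the minus strand of chromosome 10 from 87050202 to 87094843. It had 1509 counts in replicate 1 and 1553 in replicate 2, or 83.8 and 83.6 CPM and 12.1 and 11.6 TPM. Its CPM values were the closest between the libraries of any of the 9 genes. GLUD2, the intronless copy of GLUD1 on the X chromosome, had 10 and 5 counts. Of the 50-base windows of the GLUD1 transcript, 25.8% occur without a mismatch in the GLUD2 transcript, so the split of reads between the genes is uncertain. The pseudogenes GLUD1P3 and GLUD1P2 had 29 and 24 counts and 10 and 11 counts.

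GOT1 and GOT2 are the cytosolic and mitochondrial aspartate aminotransferases, which swap an amino group between glutamate and aspartate on either side of the inner mitochondrial membrane. GOT1, on the minus strand of chromosome 10 from 99396870 to 99430624, had 1205 and 1300 counts, or 66.9 and 70.0 CPM. GOT2, on the minus strand of chromosome 16 from 58707131 to 58734342, had 1509 and 1768 counts, or 83.8 and 95.2 CPM. Per deposited length GOT1 was the higher, at 57.0 and 57.1 TPM against 46.1 and 50.2 for GOT2. GOT1 over GOT2 was thus 1.24 and 1.14 in TPM, but 0.673 and 0.619 with transcript lengths. The order of the aminotransferases therefore depended on the length. The paralogue GOT1L1 had 0 counts in both libraries.

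ASNS encodes asparagine synthetase, which makes asparagine from aspartate with the amide nitrogen of glutamine. It lies on the minus strand of chromosome 7 from 97851677 to 97872542. With 5432 and 6200 counts, or 302 and 334 CPM, it had more counts than any other of the 9 genes, 23.0% and 23.4% of their sum in replicates 1 and 2. Per deposited length it had 127 and 135 TPM. Of its exonic bases, 49.3% are shared with ENSG00000284707, a same-strand processed transcript that had 5958 and 6787 counts, so both values are uncertain. The pseudogene ASNSP1 had 235 and 188 counts, and ASNS stood 13.4-fold and 19.1-fold above it in TPM.

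PYCR1 and ALDH18A1 make proline. ALDH18A1 is the mitochondrial synthase that reduces glutamate to pyrroline carboxylate, and PYCR1 is a mitochondrial reductase that completes the pathway. PYCR1, on the minus strand of chromosome 17 from 81932384 to 81942412, had 4873 and 5396 counts, or 271 and 290.5 CPM and 194 and 199 TPM. ALDH18A1, on the minus strand of chromosome 10 from 95605941 to 95656711, had 1501 and 1687 counts, or 83.3 and 90.8 CPM and 45.8 and 47.8 TPM. PYCR1 stood 4.23-fold and 4.17-fold above ALDH18A1 in TPM in replicates 1 and 2, and 5.73-fold and 5.64-fold with transcript lengths. This order held in both libraries and on both scales.

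PYCR3, a cytosolic reductase of the same family, had 652 and 698 counts and 18.9 ± 0.0800 TPM. PYCR1 over PYCR3 was 10.2 and 10.6 in TPM. With transcript lengths it was 10.5 and 10.9. A transcript of 450 bases on the opposite strand, ENSG00000263585, lies wholly inside PYCR1 exons and had 1566 and 1555 counts. How many of these were reads of PYCR1 was not tested. Of the exonic bases of PYCR1, 29.7% lie inside exons of other genes, so its values are uncertain too.

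Of the 9 genes, 6 shared exonic bases with other genes, and 3 of them, GLS2, ASNS and PYCR1, shared 25% or more. SLC1A5 shared 23.8%, mostly with the opposite-strand ENSG00000275719, which had 835 and 1241 counts. Reads in shared bases could belong to either gene, and their split was not tested. GLUL, GOT1 and ALDH18A1 shared none in the deposited coordinates. By sequence, ALDH18A1 had 0 of 3310 windows of 50 bases in transcripts of another gene, the only member with none. GLUL had 1.46% of its windows in other transcripts, and GOT1 had 20.9%, all in transcripts of GOT1-DT. All of the 18 pseudogenes named after these genes apart from ASNSP1, GLUD1P2 and GLUD1P3, 15 in number, had 0 counts in both libraries. The 6 GOT2 pseudogenes and the 4 GLUL pseudogenes were among these 15. Transcripts of GLULP4, GOT2P2, GOT2P3 and ASNSP4 share 50-base windows with a member. How reads that fit several places were counted is not given, so the counts of 0 are uncertain for these pseudogenes.

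**Figure D2:**
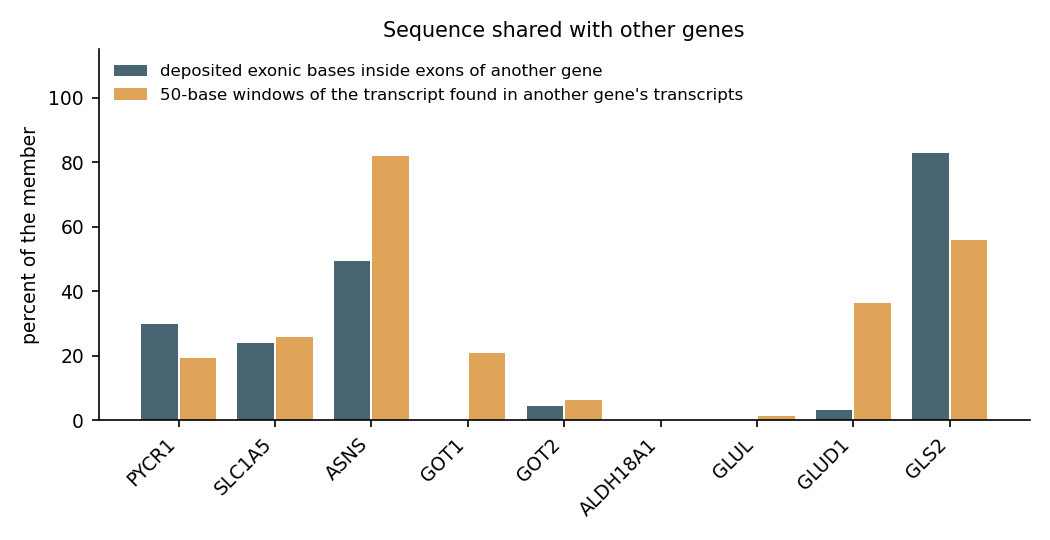
Percent of each gene's deposited exonic bases that lie inside exons of another gene on either strand, and percent of the 50-base windows of its longest coding transcript that occur in transcripts of another gene. GLS2 had the highest share by coordinates (82.8%) and ASNS by sequence (82.0%), while ALDH18A1 had 0 by both.

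Promoter windows from RefSeq (GRCh38.p14), 250 bases before to 50 after each start, were available for 8 of the 9 genes and not used for PYCR1. They were searched on both strands for the core of the amino acid response element, TGATGNAA, to which ATF4 and its partners bind. It was present in a window of 3 of the 8 genes, ASNS, GOT1 and SLC1A5, and in 4.46% of the 27305 genes with a window. Among related genes with a window, described below, it was present in 4 of 15 plasma membrane carriers and 2 of 13 amino acid response genes. The other lists had 1 of 13 (glutamate and proline), 1 of 10 (aspartate and asparagine), 1 of 7 (shuttle) and 0 of 9 (amide nitrogen). A match is a description of these letters and not a binding site. The 250 bases before the start are shown for these 3 windows, 5′ to 3′ on the gene's strand, because they hold the match, which is in capitals.
ASNS, chr7:97872409-97872658, minus strand: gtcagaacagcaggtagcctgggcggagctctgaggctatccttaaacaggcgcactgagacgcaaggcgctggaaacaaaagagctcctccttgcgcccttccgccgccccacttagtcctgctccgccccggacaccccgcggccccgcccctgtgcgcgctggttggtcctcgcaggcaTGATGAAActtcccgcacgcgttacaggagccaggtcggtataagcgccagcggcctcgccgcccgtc
GOT1, chr10:99430625-99430874, minus strand: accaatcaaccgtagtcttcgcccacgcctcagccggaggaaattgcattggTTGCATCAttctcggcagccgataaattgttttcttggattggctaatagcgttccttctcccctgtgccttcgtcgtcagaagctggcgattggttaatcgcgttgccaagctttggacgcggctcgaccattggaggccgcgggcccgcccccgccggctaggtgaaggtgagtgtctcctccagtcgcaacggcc
SLC1A5, chr19:46784815-46785064, minus strand: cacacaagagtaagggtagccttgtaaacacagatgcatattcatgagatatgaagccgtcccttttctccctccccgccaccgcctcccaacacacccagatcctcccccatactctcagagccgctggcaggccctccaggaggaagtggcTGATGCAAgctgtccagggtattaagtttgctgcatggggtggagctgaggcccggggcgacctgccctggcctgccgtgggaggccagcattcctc
The ASNS match, on the gene's strand, begins at position -68, counted from the start at 1 with no position 0, and belongs to the stretch known from earlier work as the nutrient-sensing response element of this promoter. The GOT1 match is on the other strand and begins at -198. The SLC1A5 match begins at -97 from an internal start that lies 3780 bases inside the gene from its deposited 5′ end, and the window of the outermost SLC1A5 start held none.

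A further 4 short motifs were searched in the same windows. The GC box GGGCGG was present in 7 of the 8 genes, against 48.3% of all genes with a window, and was missing in the window of ALDH18A1. The E-box CACGTG, bound by MYC and related factors, was present in ALDH18A1, at position -136, and in SLC1A5, against 8.77% of all genes. In SLC1A5 it was in the window of an internal start, 1301 bases inside the gene, and not in that of the outermost start. The CCAAT box was present in GLUL, GOT1 and SLC1A5, against 39.7% of all genes, and GOT1 held 5 copies. The TATA box TATAAA was present in 0 of the 8 genes and in 14.0% of all genes.

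The 2 libraries were close for these genes. The log2 ratio of replicate 1 over replicate 2, normalised by TMM and with 2 as the prior count, ranged from -0.30 for GLS2 to 0.00 for GLUL. No member passed 1 log2 in either direction, nor 0.5 log2. The background was counted over the 14704 genes whose mean count reached 50. Of these, 1.92% were higher and 0.143% lower in replicate 1 by 1 log2 or more, and 8.84% and 2.86% by 0.5 log2 or more, so 0 of 9 is close to that background. A ratio of 1 library to 1 library has no test.

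All 9 ratios lay below 0, as did those of 7357 of the 14704 genes. At a mean count of 1000 or more, 8 of 8 members lay below 0, against 58.2% of 3501 genes. Scaling by library totals alone turned the ratios of GLUL (0.03) and GLUD1 (0.00) to above 0. SLC1A5 had a ratio of -0.28 (exact 95% counting interval -0.34 to -0.22) and GOT2 one of -0.21 (-0.31 to -0.11). ASNS (-0.18), ALDH18A1 (-0.15) and PYCR1 (-0.13) also had intervals below 0, which made 5 of the 9. The interval left out 0 for 46.9% of the 14704 genes, so differences beyond counting error were general and 5 of 9 is no result about these genes. The intervals of GLS2, GLUL, GLUD1 and GOT1 included 0. The coefficient of variation that edgeR fitted for genes at their level was 11.4% for SLC1A5 and 19.5% for GLS2.

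**Figure D3:**
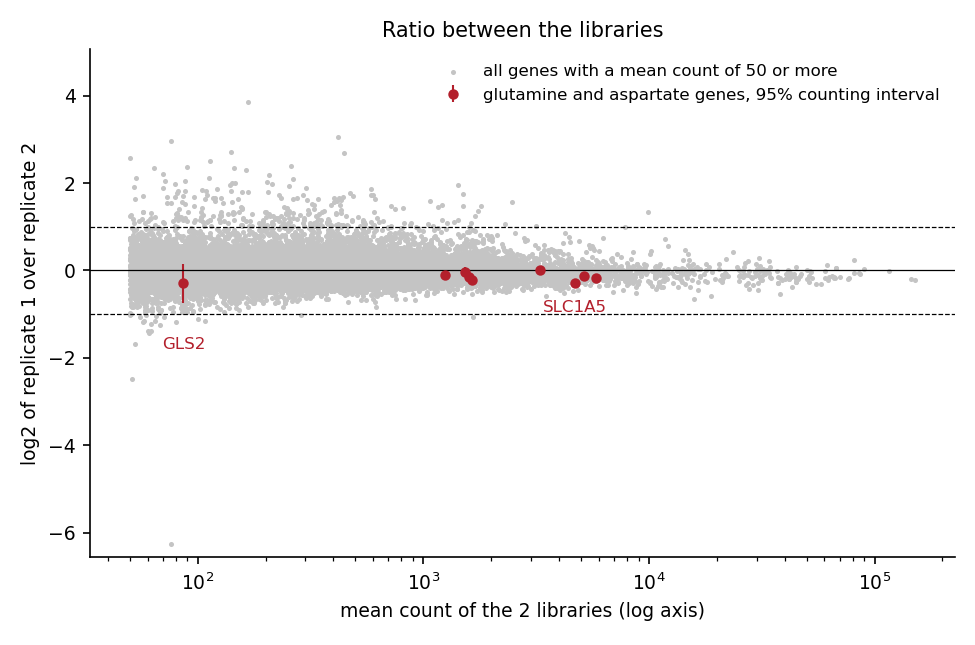
Log2 of replicate 1 over replicate 2 against the mean count of the libraries, on a log axis, for all 14704 genes whose mean count reached 50 (grey) and for the 9 genes (red, with exact 95% counting intervals). The dashed lines mark 1 log2, and all 9 genes lie between them, at or below 0.

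The other genes of the pathway were read from 6 lists. Of 84 further genes in these lists, 69 were detected. Glutamate and proline enzymes had 15 of 19 detected and a median of 7.89 TPM. PSAT1, which uses glutamate to make serine, led them at 424 ± 33.7 TPM, above every one of the 9 genes. OAT, the ornithine aminotransferase, had 92.8 ± 8.11 TPM. The lowest in TPM per deposited length were PRODH, the proline dehydrogenase, with 4 and 3 counts, and PRODH2, which acts on hydroxyproline, with 0. GAD2, with 5 and 0 counts, was below PRODH with transcript lengths. The proline-making PYCR1 and ALDH18A1 thus had 1501 counts or more in each library, and PRODH, which starts proline breakdown, had 4 or fewer. GCLM, a subunit of the enzyme that commits glutamate to glutathione, was the only gene of the 6 lists past 1 log2 between the libraries among those whose mean count reached 50, with 523 and 241 counts (log2 ratio 1.13), and is named after its values were seen.

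Enzymes that take the amide nitrogen of glutamine were all detected, 9 of 9, from 4.05 to 22.0 TPM with a median of 10.2 TPM. PPAT, which starts purine synthesis, had 22.0 ± 2.40 TPM, the CTP synthetase CTPS1 18.0 ± 1.13 and CAD, which starts pyrimidine synthesis, 16.7 ± 0.361. GFPT1, which starts hexosamine synthesis (4.42 ± 0.232), and NADSYN1, which makes NAD (4.05 ± 0.138), were lowest per deposited length. With transcript lengths NADSYN1 had 16.6 TPM and was no longer among the lowest. ASNS, which also takes this amide, stood above all 9 of them at 131 ± 5.38 TPM, and it did so with transcript lengths too.

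Aspartate and asparagine enzymes had 10 of 14 detected and a median of 16.4 TPM. ASNSD1, a gene with an asparagine synthetase domain, had 71.7 ± 7.50 TPM, ASS1, which joins aspartate to citrulline, 59.8 ± 6.13, and the asparaginyl-tRNA synthetase NARS1 55.3 ± 5.44. The value of ASNSD1 is uncertain, since 48.5% of its exonic bases also belong to other genes. ASPA, DDO and GOT1L1 had 0 counts in both libraries, so genes that break down acetylaspartate or D-aspartate were not detected at this depth.

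The shuttle partners of GOT1 and GOT2 had 6 of 7 detected and a median of 25.3 TPM. The malate dehydrogenases MDH1 and MDH2 had 129 ± 13.6 and 105 ± 0.666 TPM, and SLC25A11, the carrier that exchanges malate for alpha-ketoglutarate, had 124 ± 14.2. All 3 stood above both aminotransferases on either length scale. Of the aspartate-glutamate carriers, SLC25A13 had 895 and 798 counts (25.3 TPM on average) and SLC25A12 had 6.88 ± 0.832 TPM. SLC25A13 falls outside the rule for named genes and was added after its values were seen. SLC25A18, a glutamate carrier, had 15 and 17 counts and was not detected.

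Among plasma membrane carriers of amino acids, 12 of 18 were detected, with a median of 2.52 TPM. SLC3A2, the heavy chain shared by several exchangers, led at 113 ± 6.45 TPM, followed by the glutamine transporter SLC38A2 (43.0 ± 8.35) and by SLC7A5 (38.9 ± 0.0575), which exports glutamine in return for leucine and other large amino acids. SLC1A5 stood 3.74-fold and 4.28-fold above SLC7A5 in TPM in replicates 1 and 2, and 4.12-fold and 4.71-fold with transcript lengths. SLC6A14 and SLC6A19 had 0 counts.

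ATF4 and genes of the amino acid response, a list that holds known partners and targets of ATF4, were all detected, 17 of 17, with a median of 65.7 TPM. EIF4EBP1, a repressor of translation initiation, had 996 ± 46.7 TPM, ATF4 itself 932 ± 10.2 and DDIT4, an inhibitor of mTOR signalling, 223 ± 13.8. ATF5 (21.0 ± 2.11) and VLDLR (1.18 ± 0.103) were lowest. Of the 6 lists this was the one with a median above that of the 9 genes, but with transcript lengths the 9 genes had the higher median, at 51.1 TPM against 43.8 for this list.

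**Figure D4:**
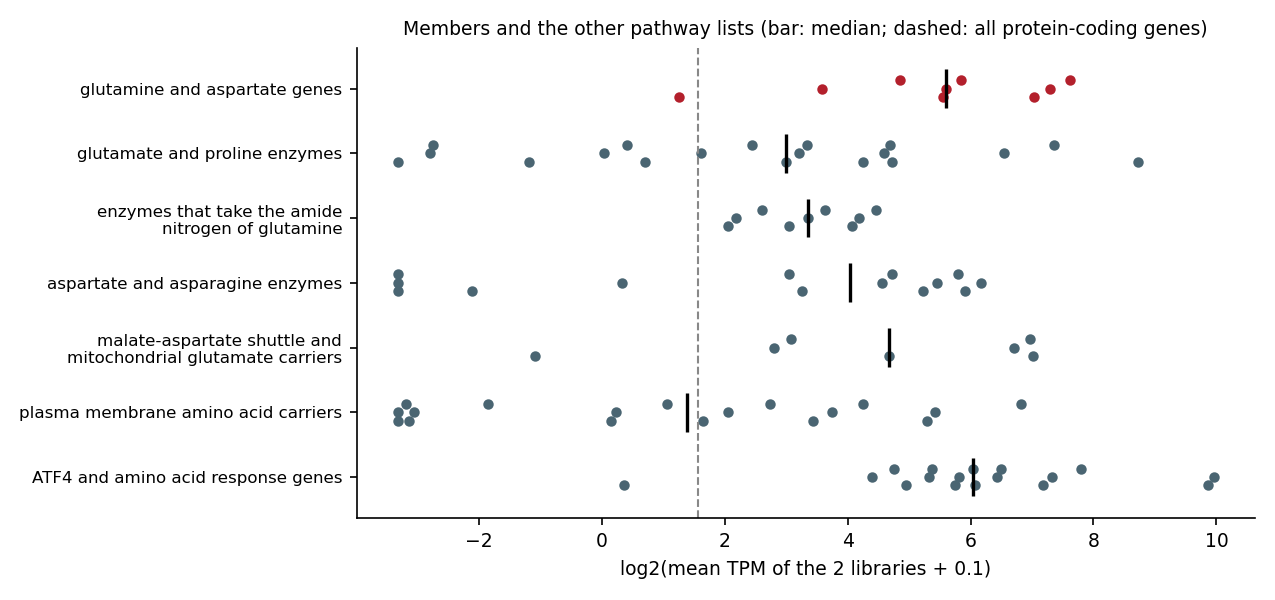
Mean TPM of the libraries on the scale log2(TPM + 0.1) for the 9 genes (red) and for each gene of the 6 other lists (grey), with the median of each list as a bar and that of all protein-coding genes as a dashed line. The 9 genes had a median of 48.1 TPM, between those of the amino acid response genes (65.7) and the shuttle genes (25.3), and GLS2 was the one member below the dashed line.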

How the data were processed

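Per the labels' protocols, TRIzol RNA was treated with DNase I, copied with an oligo(dT) primer, and the cDNA was sonicated before ligation with a kit for single strands. The values deposited by the authors are raw counts per Ensembl gene, not normalised, in a file for each library. Build GRCh38, featureCounts 2.0.3, Trim Galore 0.6.7 and bcl2fastq 2.17 appear in the submitters' processing notes. Not given in the sources used here are the aligner, annotation release, read length, and settings for strand, overlap and reads that fit several places.

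CPM and TPM were computed from the counts, library totals and deposited exon lengths. Symbols matched 60463 of 60664 IDs, and types and transcripts came from GENCODE 29. Genes without a coding transcript there kept the deposited length in the alternative TPM. Exon overlap used bedtools 2.31.1 on either strand. Ratios used edgeR 4.0.16 in R 4.3.3 with TMM factors (1.01 and 0.989), and DESeq2 1.42.0 size factors were an alternative. The ratio step was tested on simulated data. Summed over 21018 genes with 10 or more counts, the libraries differed by a chi-square of 12.7 per degree of freedom and were kept as separate samples. Intervals are exact 95% binomial intervals. The design gives 1 group, so no test was run.

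All 9 members were named, with the 3 highest and 2 lowest genes of each other list by mean TPM, ties by symbol, and the paralogues and pseudogenes of the members. A gene that this rule takes is not reported here, though it remains in the counts and medians of its lists. The members and lists were chosen with earlier results of these data known.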

Additional observations from a re-analysis of the deposited data

How the results depend on the processing

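The length used moved the levels most. With the longest coding transcript in place of the deposited merged length, the mean TPM was 126 for SLC1A5, 53.9 for GLUL, 38.8 for GLUD1, 33.0 for GOT1, 51.1 for GOT2, 190 for ASNS, 207 for PYCR1 and 36.5 for ALDH18A1, while GLS2, at 2.53, moved by less than 1 SD. The median of the 9 genes was 51.1 TPM on that scale and 89.5 CPM with no length correction. At 5 CPM 8 of the 9 genes were detected, all but GLS2, and at 1 TPM all 9 were. Between the libraries 0 of 9 passed 1 log2 under DESeq2 size factors, library totals, each count filter tried and a threshold of 0.5 log2. Of 27 recomputed ratios, all lay inside the counting interval of the reported one and 25 kept its sign. The values of either library alone are those given per replicate in the text. No paired analysis was possible because the labels give 1 group. GLS2, at under 100 counts in each library, had the fewest counts of the 9.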
